A study of Mus musculus with 4 samples.

Results

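Microglia that kept P2ry12 and Tmem119 transcripts after 5 weeks of cuprizone were compared with untreated microglia taken through the same gate. Members were chosen by measured values of the same cells. A cell entered the gate with at least 500 genes, at least 1500 unique molecular identifiers (UMIs, 1 per captured transcript), at most 10% mitochondrial UMIs, both P2ry12 and Tmem119 detected and fewer than 3 of 6 macrophage markers (Mrc1, Pf4, F13a1, Ms4a7, Cd163, Lyve1). The UMIs of 8 damage-associated genes (Spp1, Cst7, Lpl, Fabp5, Axl, Clec7a, Itgax, Gpnmb) also had to sum to less than 5 per 10000. The gate held 657 of the 2000 barcodes of week 5, out of 4000 barcodes in all, with 329 cells in replicate 1 and 328 in replicate 2. The reference was 402 and 758 cells of week 0 replicates 1 and 2.

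The cells came from the corpus callosum, a large white matter tract, of male C57BL/6 mice labelled as 13 weeks old. The 2 week 0 libraries came from mice that were not treated and the 2 week 5 libraries from mice given cuprizone, a copper chelator that kills oligodendrocytes and strips myelin. Live nucleated cells with CD11b, an integrin of myeloid cells, were sorted by flow cytometry and sequenced from the 3′ ends of their transcripts in droplets. Whether each library is a separate animal is not said in the labels. The p-values below therefore reflect the spread between libraries, which may be technical.

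Microglia are the resident macrophages of the brain parenchyma. In the healthy brain they carry a homeostatic programme, maintained in part by TGF-beta and by transcription factors such as Sall1, which includes the ADP receptor P2ry12 and the membrane protein Tmem119. Near damaged myelin many of them lower this programme and induce lipid-handling and lysosomal genes, often called the damage-associated state.

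The tables held 1000 barcodes per library and between 2415001 and 6559032 UMIs, and pairs of libraries shared between 0 and 2 barcode sequences. Depth differed with time among gated cells: the median was 3810 and 4190.5 UMIs at week 0 and 6144 and 5651 at week 5. The highest number of genes in any cell also differed, from 2996 in week 5 replicate 2 to 6615 in week 0 replicate 2. The part of depth and of these limits in the results is given where it changed them.

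The label held for the cells of the gate. Cx3cr1 (the fractalkine receptor) and Csf1r (the receptor for CSF1 and IL-34) were each detected in at least 99.39% of gated cells of every library. Transcripts of the T cell gene Cd3e and the neutrophil gene S100a8 were at 0 in all 4 libraries. Ly6c2 of classical monocytes was seen in 1 cell. Ccr2, also on the monocyte list, was seen in 6 and 26 cells at week 0 and 7 and 5 at week 5. The border macrophage gene Lyve1 was also at 0, but the gate limited the macrophage markers, so their levels are no separate check. Of these markers, Mrc1 had 18 and 26 UMIs at week 0 against 8 and 21 at week 5. Ms4a7 had 0 and 1 against 8 and 19, and Pf4, F13a1 and Cd163 had at most 9 in any library. The monocyte list was 226 and 200 CPM of total UMIs at week 0 and 473 and 504 CPM at week 5. Its leading gene was Lyz2, which microglia also express. The 12 members of the monocyte list were all detected, and their part in the results was not tested. The border macrophage list outside the gate was summed over 12 genes. That sum was 461 and 412 CPM at week 0 against 398 and 419 CPM at week 5. Apoe, planned as a member of the list, was not in the sum. Apoe alone was 660 and 356 CPM of total UMIs at week 0 against 9636 and 7821 CPM at week 5. The oligodendrocyte list was 989 and 857 CPM against 1021 and 1036 CPM. The astrocyte list was 266 and 216 CPM against 242 and 312 CPM. The endothelial list was 453 and 524 CPM against 434 and 500 CPM. The choroid plexus and neuron list was 665 CPM in week 5 replicate 1 and between 9.77 and 121 CPM in the other libraries. That value came from Ttr, of which 96.3% of 1247 UMIs lay in 10 cells.

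Smaller shares of cells passed the marker step and the last step of the gate at week 5. Among cells that passed the limits on genes, mitochondrial UMIs and depth, both P2ry12 and Tmem119 were detected in 86.2% and 98.4% at week 0. At week 5 these shares were 67.4% and 67.5%. The whole gate held 84.1% and 96.1% of such cells at week 0 and 42.1% and 54.4% at week 5, and not all of them need be microglia. Of cells that met every other condition, 98.0% (402 of 410) and 98.1% (758 of 773) stayed below the damage-associated limit at week 0, against 63.0% (329 of 522) and 80.8% (328 of 406) at week 5. Exact 95% intervals, which cover counting error only, were 58.7% to 67.2% and 76.6% to 84.5% for the week 5 libraries. When every cell was first thinned to 1500 UMIs, the shares were 96.1%, 95.4%, 63.2% and 77.9%. The week 5 libraries were both lower than the week 0 libraries, and they differed from each other by more than counting error. The gate was built on these values, so the shares are a description and no test was made.

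Cells near the limit were few at week 0 and more frequent at week 5. Between 4 and 5 per 10000 UMIs, just inside, lay 4 and 5 cells at week 0 and 31 and 19 at week 5. Just outside, between 5 and 6, lay 3 and 6 cells at week 0 and 24 and 16 at week 5. At the other end, 153 and 201 of the week 5 cells of the gate had no UMI of the 8 genes at all.

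The genes that defined the gate are given without a test. P2ry12 stood at 3933 and 3775 CPM at week 0 against 3104 and 2618 CPM at week 5, here and below as CPM of the effective library size. Tmem119 stood at 1529 and 1635 CPM against 1369 and 1338 CPM. Both genes were lower in both week 5 libraries, although every cell had been required to contain them. Axl, a receptor tyrosine kinase for dying cells, was 1.23 and 1.58 CPM at week 0 against 40.7 and 31.1 CPM at week 5, below the limit that the gate allowed. Clec7a, a receptor for beta-glucans, was 5.52 and 6.53 CPM against 33.9 and 24.2 CPM, and Lpl, lipoprotein lipase, was 7.98 and 10.8 CPM against 25.6 and 31.1 CPM. Spp1, a secreted phosphoprotein, gave 2 and 5 UMIs at week 0 and 31 and 4 UMIs at week 5.

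UMIs summed over the gated cells of each library were compared between the times by edgeR's quasi-likelihood test with Benjamini-Hochberg adjustment, calling genes with an adjusted p under 0.05. Among 9880 genes tested, 218 were called, 2.21% of the total. The higher calls numbered 205 (2.07%) and the lower calls 13 (0.132%). The groups of libraries did not overlap in the higher direction for 19.1% of tested genes and in the lower direction for 18.9%. The median log2 fold change of all tested genes was -0.003. With library size as the only scaling, the calls were 180 higher and 36 lower, and that median was -0.09.

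Homeostatic genes outside the gate tended lower, with 1 call. Of 25 tested, 0 rose and 1 fell, where 2.07% of all tested genes rose and 0.132% fell. Their median log2 fold change was -0.17 against -0.003 over all genes. At an unadjusted p under 0.05, 6 were lower and 0 higher. DESeq2 called 3 lower (P2ry13, Slc2a5 and Lrba) and 0 higher. Csf1r was 3950 and 3964 CPM at week 0 against 3934 and 3777 CPM at week 5, with a log2 fold change of -0.04 (SE 0.16). Cx3cr1 was 6946 and 7239 CPM at week 0 against 6396 and 6508 CPM at week 5, lower in both libraries but with a log2 fold change of -0.14 (SE 0.15) and an adjusted p of 0.892 by edgeR.

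P2ry13, a second ADP receptor, had 838 and 796 CPM at week 0 against 553 and 558 CPM at week 5. Its groups did not overlap, and edgeR gave a log2 fold change of -0.56 (SE 0.16) with an adjusted p of 0.0896. Slc2a5, a fructose transporter, had 381 and 414 CPM against 285 and 245 CPM, with a log2 fold change of -0.59 (SE 0.16) and an adjusted p of 0.0826 by edgeR. Neither passed the threshold in these fits. P2ry13 passed in 5 and Slc2a5 in 6 of 17 other settings, among them DESeq2 (adjusted p 0.0154 and 0.0401). The member that fell was Lrba, a regulator of vesicle trafficking, at 217 and 241 CPM against 151 and 143 CPM (log2 fold change -0.64, SE 0.16, edgeR adjusted p 0.0487). Its call was lost under 9 of 17 other settings, with an adjusted p of up to 0.446, and without any 1 of the 4 libraries (0.0560 to 0.401).

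Transcription factors of microglial identity and genes of the TGF-beta pathway showed no call in either direction by edgeR. Over all tested genes 2.07% rose and 0.132% fell, so a list of this size would hold few calls. The absence of calls does not show that these genes were unchanged. The 23 tested had a median log2 fold change of -0.14. At an unadjusted p under 0.05, edgeR had 1 higher and 3 lower. DESeq2 called 1 lower, Jun, and 0 higher. Jun, a subunit of AP-1, had 298 and 255 CPM at week 0 against 191 and 155 CPM at week 5 (log2 fold change -0.67, SE 0.17, edgeR adjusted p 0.0563) and passed in 9 of 17 other settings. Sall1 was 488 and 506 CPM at week 0 against 403 and 366 CPM at week 5, with a log2 fold change of -0.37 (SE 0.16) and an edgeR adjusted p of 0.420. Mef2c was 1541 and 1462 CPM against 1445 and 1376 CPM. Irf8 was 546 and 619 CPM against 546 and 538 CPM, and its groups overlapped. At 2 libraries a group, the simulated data recovered 91.2% of genes changed 2-fold, so smaller shifts than that could be missed. The changed genes were drawn only from those above a minimum mean CPM, so this rate does not cover genes of lower level.

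The plot of levels by library shows these groups side by side, with the genes that rose to the right.

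**Figure D1:**
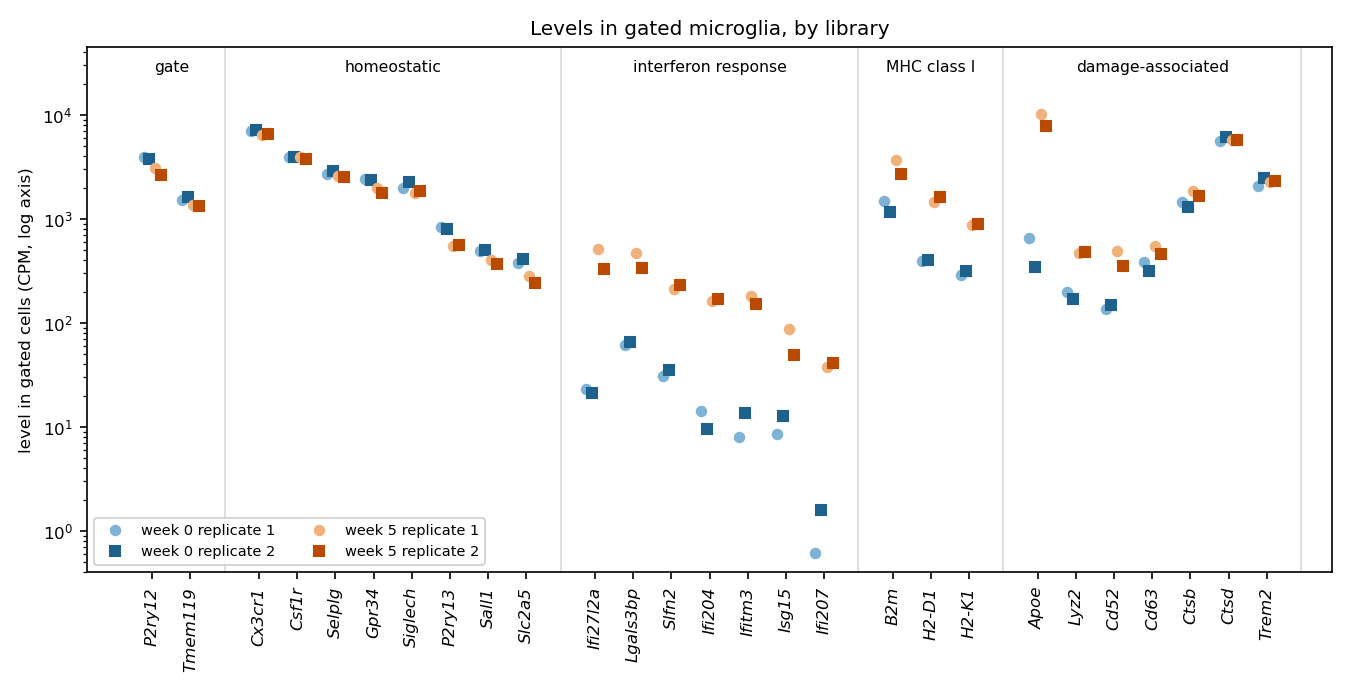
Level of named genes in gated microglia (CPM of the effective library size, log axis) in each of the 4 libraries; circles and squares are replicates 1 and 2, blue is week 0 and orange week 5. Csf1r nearly coincides between times and P2ry13 and Slc2a5 lie somewhat lower at week 5, while Apoe and the interferon response genes shown lie higher in both week 5 libraries than in both week 0 libraries.

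Interferon response genes rose in the gated cells of week 5. Of 32 tested, 28 rose and 0 fell, with a median log2 fold change of 2.66 and every member above 0. Of all tested genes, 2.07% rose. The number of members that rose was between 18 and 32 over the other settings.

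Ifi27l2a, an interferon-induced mitochondrial protein gene, had 23.3 and 21.4 CPM at week 0 against 511 and 328 CPM at week 5. The log2 fold change was 4.24 (SE 0.24, edgeR adjusted p 3.3e-08). Ifi204, a member of the p200 family of nucleic acid sensors, had 14.1 and 9.45 CPM against 162 and 171 CPM, a log2 fold change of 3.92 (SE 0.21). Both week 5 libraries were above both week 0 libraries by more than the spread within either group. Ifitm3, a membrane protein that blocks viral entry, had 7.98 and 13.7 CPM against 181 and 152 CPM. Isg15, a ubiquitin-like modifier, had 8.59 and 12.6 CPM against 87.6 and 49.5 CPM, with a log2 fold change of 2.60 (SE 0.28, edgeR adjusted p 4.28e-05). Slfn2 had 30.7 and 34.9 CPM against 214 and 232 CPM.

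Ifi207 (log2 fold change 4.86), Oas1a (4.39), Oasl2 (4.37) and Usp18 (4.07) were among the 12 largest rises, but each rested on at most 13 UMIs in either week 0 library. Reads of Ifi204 and Ifi207, and of the Oas genes, may be split among close relatives, so the values of single members are uncertain.

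Promoter sequence was examined because these genes moved together. The core of the interferon-stimulated response element, GAAA followed by any 2 bases and GAAA again, was searched on both strands of the 250 bases before each RefSeq gene start (GRCm38.p6), letting matches overlap. It was found in 978 of 32851 promoters (2.98%) and in 3.22% of the tested genes with a match in the table. Of the 28 interferon genes that rose, 20 were matched and 10 of these held it; of the other genes that rose, 19 of 127 did (15.0%). A match is a description of these letters, not evidence of binding. The promoters of Isg15 (chr4:156200819-156201068, minus strand), Oas1a (chr5:120907526-120907775, minus strand) and Ifi207 (chr1:173741810-173742059, minus strand) are shown because the naming rule picks these genes and they hold the motif. They were chosen for display after the matches had been seen. Apoe (chr7:19699189-19699438, minus strand), the most abundant gene among the largest rises, held no match in any of its 3 listed promoters. Each sequence runs 5′ to 3′ along the gene's strand, and capitals mark the motif.
Isg15: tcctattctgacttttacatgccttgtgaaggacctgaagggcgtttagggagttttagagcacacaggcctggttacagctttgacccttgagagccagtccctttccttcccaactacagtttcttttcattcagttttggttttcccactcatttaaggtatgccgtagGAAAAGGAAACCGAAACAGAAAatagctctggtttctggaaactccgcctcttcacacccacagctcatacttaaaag
Oas1a: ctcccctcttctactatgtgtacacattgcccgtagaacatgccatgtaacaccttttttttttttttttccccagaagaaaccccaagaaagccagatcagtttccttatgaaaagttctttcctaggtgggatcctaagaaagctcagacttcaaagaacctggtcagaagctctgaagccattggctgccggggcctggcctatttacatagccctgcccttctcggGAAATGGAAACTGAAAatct
Ifi207: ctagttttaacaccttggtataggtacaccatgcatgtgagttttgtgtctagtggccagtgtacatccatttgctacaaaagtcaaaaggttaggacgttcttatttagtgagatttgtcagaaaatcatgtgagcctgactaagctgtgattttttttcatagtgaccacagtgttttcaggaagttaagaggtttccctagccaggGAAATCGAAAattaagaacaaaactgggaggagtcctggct
Apoe: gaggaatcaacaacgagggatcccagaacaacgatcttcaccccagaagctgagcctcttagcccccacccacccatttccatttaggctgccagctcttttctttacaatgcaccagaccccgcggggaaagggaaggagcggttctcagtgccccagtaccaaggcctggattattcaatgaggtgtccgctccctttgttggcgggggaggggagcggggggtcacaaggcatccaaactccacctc
The matches began 78, 72 and 66 bases before the start in Isg15, 20 and 14 bases in Oas1a, and 41 bases in Ifi207.

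The rise was spread over cells. At 1500 UMIs per cell, the median gated cell held 1 UMI of the interferon list in each week 0 library and 3 in each week 5 library. Cells with none made up 34.6% and 34.0% at week 0 and 7.29% and 7.01% at week 5. Cells with 5 or more made up 2.74% and 1.72% against 37.7% and 38.1%. Before thinning, cells with none were 15.2% and 6.73% at week 0 and 0.304% and 1.22% at week 5. The plot of UMIs per cell shows that the week 5 curves lie above those of week 0 from 1 UMI upward.

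**Figure D2:**
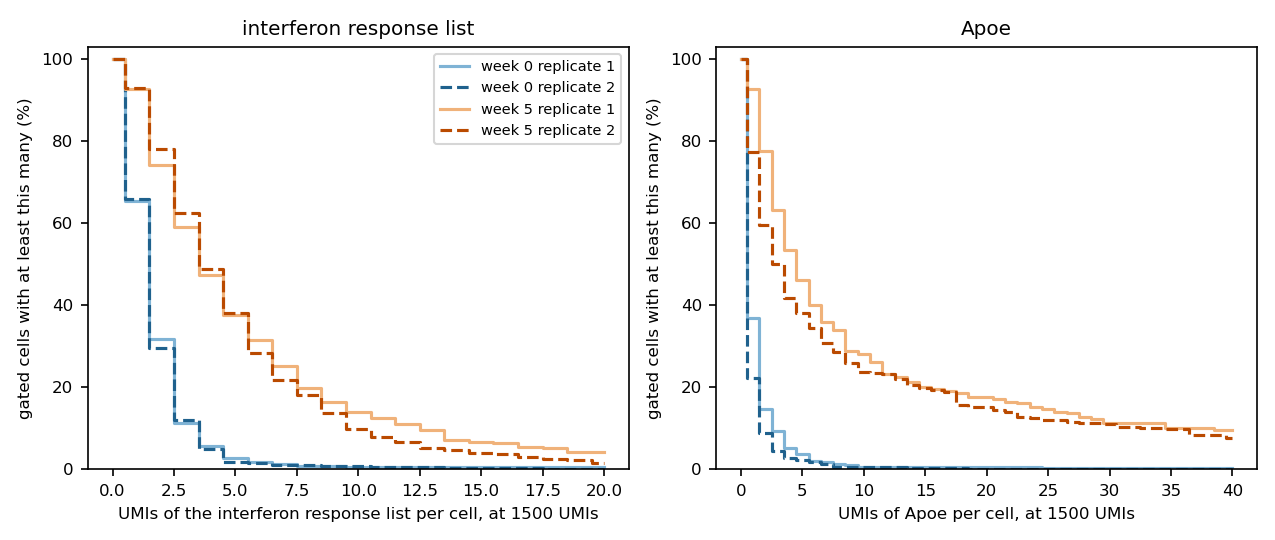
Percentage of gated cells with at least a given number of UMIs of the interferon response list (left) and of Apoe (right), after thinning each cell to 1500 UMIs; solid and dashed lines are replicates 1 and 2. At 5 UMIs of the interferon list, the week 5 libraries stand at 37.7% and 38.1% and the week 0 libraries at 2.74% and 1.72%.

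Genes of antigen presentation on MHC class I also rose in part. Of 22 tested, 8 rose (36.4%) and 0 fell, with a median log2 fold change of 0.68. Over all tested genes 2.07% rose, and the median was -0.003. H2-D1, a classical class I heavy chain, had 395 and 404 CPM at week 0 against 1446 and 1636 CPM at week 5, a log2 fold change of 1.95 (SE 0.16, edgeR adjusted p 2.09e-06). H2-K1 had 292 and 317 CPM against 867 and 886 CPM. B2m, the light chain shared by class I molecules, had 1472 and 1159 CPM against 3666 and 2705 CPM (log2 fold change 1.28, SE 0.19). The groups were apart for all 3 genes, as they were in the higher direction for 19.1% of all tested genes. H2-Q6 and H2-Q7 were among the largest rises, but near-identical H2-Q genes can share reads. The peptide transporter Tap1 (log2 fold change 0.70, edgeR adjusted p 0.0725) and the immunoproteasome subunit Psmb8 (0.54, adjusted p 0.114) did not pass.

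For MHC class II, 2 of 10 tested genes rose, against 2.07% of all tested genes. Cd74, the invariant chain, had 13.5 and 44.6 CPM at week 0 against 55.8 and 337 CPM at week 5 (log2 fold change 2.58, SE 0.56, edgeR adjusted p 0.0183). In week 5 replicate 2, 88.4% of its 586 UMIs lay in 10 cells. H2-Ab1 had 14.7 and 19.6 CPM against 24.5 and 126 CPM, and 94.1% of its UMIs in the same library lay in 10 cells. When the gate was applied to thinned cells, Cd74 had an adjusted p of 0.996, and with DESeq2 H2-Ab1 had one of 0.914. Without week 5 replicate 2 the values were 0.0680 and 0.649.

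Apoe, the lipid carrier apolipoprotein E and a gene of the damage-associated state that the gate did not use, rose in cells that kept P2ry12 and Tmem119. It had 651 and 344 CPM at week 0 against 10269 and 7885 CPM at week 5, a log2 fold change of 4.20 (SE 0.27, edgeR adjusted p 1.21e-07). At 1500 UMIs per cell, 63.2% and 77.7% of the week 0 cells held no Apoe UMI, against 7.29% and 22.6% of the week 5 cells. The median cell held 0 at week 0, and 4 and 2.5 at week 5.

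Free RNA from other cells was gauged in week 5 replicate 2, where lymphocyte barcodes could be found. In its 10 lymphocyte barcodes, with a median of 5461 UMIs, Apoe was detected in 7 and stood at 1505 CPM of total UMIs, against 7821 CPM in gated cells with a median of 5651 UMIs. C1qa, an abundant microglial complement gene, stood at 119 CPM there against 9799 CPM. Ifi204 was detected in 0 of the 10 barcodes and Ifitm3 in 1. Ifi27l2a, however, was detected in 5 and stood at 1149 CPM, 3.54 times its level in gated cells, and H2-D1 in all 10 at 3150 CPM, 1.94 times. Lymphocytes can express both genes themselves, so these barcodes give no background level for them. With 10 barcodes these shares are wide: for Ifi204 the exact 95% interval reached 30.9%. The part of free RNA in the rises of Apoe, Ifi27l2a and H2-D1 was not tested further.

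Most other damage-associated genes outside the gate did not pass. Of 25 tested, 5 rose and 0 fell, against 2.07% and 0.132% of all tested genes. The list had a median log2 fold change of 0.34, and the 5 were Apoe, Lgals3bp, Cd52, Lyz2 and Fth1. Fth1, the ferritin heavy chain, had 1710 and 1949 CPM at week 0 against 3420 and 2912 CPM at week 5. Its log2 fold change was 0.79 (SE 0.16, edgeR adjusted p 0.0145), and its call was not kept in every alternative. Apoe, Lgals3bp, Cd52 and Lyz2 stayed called in every alternative. Lgals3bp, which is also in the interferon list, had 60.8 and 65.7 CPM against 473 and 334 CPM. Cd52, a small surface glycoprotein, had 135 and 149 CPM against 490 and 352 CPM (log2 fold change 1.56, SE 0.18), and Lyz2, lysozyme, had 199 and 169 CPM against 470 and 479 CPM. The receptor Trem2 and its adaptor Tyrobp overlapped between groups, at log2 fold changes of 0.02 (SE 0.16) and 0.21 (SE 0.17).

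The tetraspanin Cd63 had 383 and 316 CPM at week 0 against 554 and 461 CPM at week 5, which did not pass (log2 fold change 0.54, SE 0.17, edgeR adjusted p 0.147), though it did in 3 of 17 other settings. None of 31 lysosomal genes passed in either direction with edgeR, where 2.07% of all tested genes rose and 0.132% fell. Their median log2 fold change was 0.17. At an unadjusted p under 0.05, 7 were higher, and 2 rose with DESeq2. The protease gene Ctsb was 1444 and 1288 CPM against 1849 and 1678 CPM (log2 fold change 0.37, SE 0.16, adjusted p 0.448). Ctsd, at 5663 and 6190 CPM against 5715 and 5783 CPM, overlapped. Lgals3 and Igf1 did not pass the filter on low counts, with 4 UMIs each over both week 0 libraries and with 22 UMIs each over both week 5 libraries. With no filter, edgeR gave log2 fold changes of 3.13 for Lgals3 (adjusted p 0.00774) and 3.12 for Igf1 (adjusted p 0.00806).

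Among chemokine genes, some rises rested on few cells. Of 9 tested, 4 rose (Ccl2, Ccl5, Ccl3 and Ccl12), against 2.07% of all tested genes. Their list had a median log2 fold change of 1.10. Ccl2, which attracts monocytes, had 1.23 and 1.58 CPM at week 0 against 99.6 and 51.2 CPM at week 5, the largest rise among the tested genes (log2 fold change 5.63, SE 0.42, edgeR adjusted p 4.96e-07). Its week 5 UMIs came from 9 cells in replicate 1 and 4 cells in replicate 2. Ccl5 had 0 and 6 UMIs at week 0 and 77 and 18 at week 5, and its adjusted p was 0.0912 with DESeq2 and 0.0541 without week 5 replicate 1. Ccl12 had 48.5 and 64.4 CPM against 111 and 136 CPM, with UMIs in 83 and 85 of the week 5 cells.

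Ccl3 had 60.2 and 16.4 CPM against 145 and 135 CPM, and 10 cells held 94.2% and 96.6% of its week 5 UMIs. With cells at 0 damage-associated UMIs its edgeR adjusted p was 0.915. It was 0.0612 with a minimum of 3000 UMIs per cell, and 0.696 with DESeq2. Ccl4 did not pass in the edgeR fit over all gated cells: it had 212 and 23.2 CPM against 335 and 260 CPM (edgeR adjusted p 0.318), and 10 cells held 97.5% and 98.7% of its week 5 UMIs. It passed in 7 of 17 other settings, among them the one without week 0 replicate 1, which held the high week 0 value (log2 fold change 3.68, adjusted p 1.21e-09), and the one without week 5 replicate 2 (1.65, adjusted p 5.99e-07). Of 20 genes of NF-kB and cytokines, only Cd83 rose (5%, against 2.07% of all tested genes). Cd83 had 55.9 and 46.4 CPM at week 0 against 110 and 89.8 CPM at week 5. Its edgeR adjusted p was 0.116 with cells at 0 damage-associated UMIs and 0.0989 with the gate on thinned cells. It was 0.0544 with a minimum of 3000 UMIs per cell. Without week 0 replicate 2 its log2 fold change was 0.84. Of 18 immediate early genes only Nr4a1 rose (5.56%, against the same 2.07%), from 4 and 2 UMIs at week 0 to 15 and 19 at week 5. Its adjusted p was 0.0579 with DESeq2. By edgeR it was 0.0743 with a minimum of 3000 UMIs per cell and 0.347 without the required markers. Its log2 fold change was 1.90 without week 0 replicate 2, 3.33 without week 5 replicate 1 and 2.85 without week 5 replicate 2.

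Few receptor and complement genes passed. Of 18 phagocytic receptor genes 3 rose, the Fc receptors Fcgr4 and Fcgr2b and the lipid receptor Cd300lf, against 2.07% of all tested genes. The list median was 0.09 on the log2 scale. The call of Fcgr2b was lost without week 0 replicate 1 (adjusted p 0.0731) or 2 (0.233), and that of Cd300lf without week 5 replicate 2 (0.139). Mertk, a receptor for dying cells, was 675 and 509 CPM against 558 and 598 CPM and overlapped. Of 10 complement genes only C4b rose (10%, against the same 2.07%), from 2 and 3 UMIs at week 0 to 23 and 22 UMIs at week 5. C1qa had a log2 fold change of 0.10 (SE 0.16).

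For lipid handling, 0 of 12 sterol synthesis genes and 0 of 12 fatty acid genes passed by edgeR. Over all tested genes 2.07% rose and 0.132% fell, so short lists such as these and those below would hold few calls. Of 13 genes of sterol efflux and storage 2 rose, against 2.07% of all tested genes. They were Apoe and the exporter Abcg1 (104 and 105 CPM against 174 and 163 CPM). The Abcg1 call was lost in 9 of 17 other settings, with an adjusted p of 0.192 and 0.191 when the first or the second week 0 library was left out and of 0.0573 without week 5 replicate 1. Glycolysis (0 of 17), the respiratory chain of the mitochondrial (0 of 13) and nuclear (0 of 26) genomes, chaperones (0 of 11), cell cycle genes (0 of 8) and purinergic receptors outside the gate (0 of 6) had no call by edgeR. At an unadjusted p under 0.05, 7 nuclear respiratory chain genes were higher and 2 chaperone genes lower, and 0 sterol synthesis and 0 mitochondrial genes passed. Of sterol efflux and storage, 3 were higher and 1 lower, and the fatty acid, glycolysis and cell cycle lists had 1 higher each. The purinergic list had 1 higher and 1 lower. With DESeq2, 2 genes of sterol efflux and storage rose, 1 purinergic receptor (P2ry13) fell, and the other lists of this group had 0 calls.

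Genes of cytosolic ribosomal proteins rose as a group. Of 26 listed genes 19 rose and 0 fell, with a median log2 fold change of 0.74, and by gene name 60 of 80 tested rose. Over all tested genes 2.07% rose, and the median was -0.003. Rps29 had 3478 and 2553 CPM at week 0 against 7438 and 5276 CPM at week 5, and Rps12 had 1081 and 1243 CPM against 2603 and 2035 CPM. The number of listed genes that rose was between 4 and 24 over the other settings, and was 4 without week 0 replicate 1. Processed pseudogenes of these genes can share their reads. The plot of lists sets them beside the others.

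**Figure D3:**
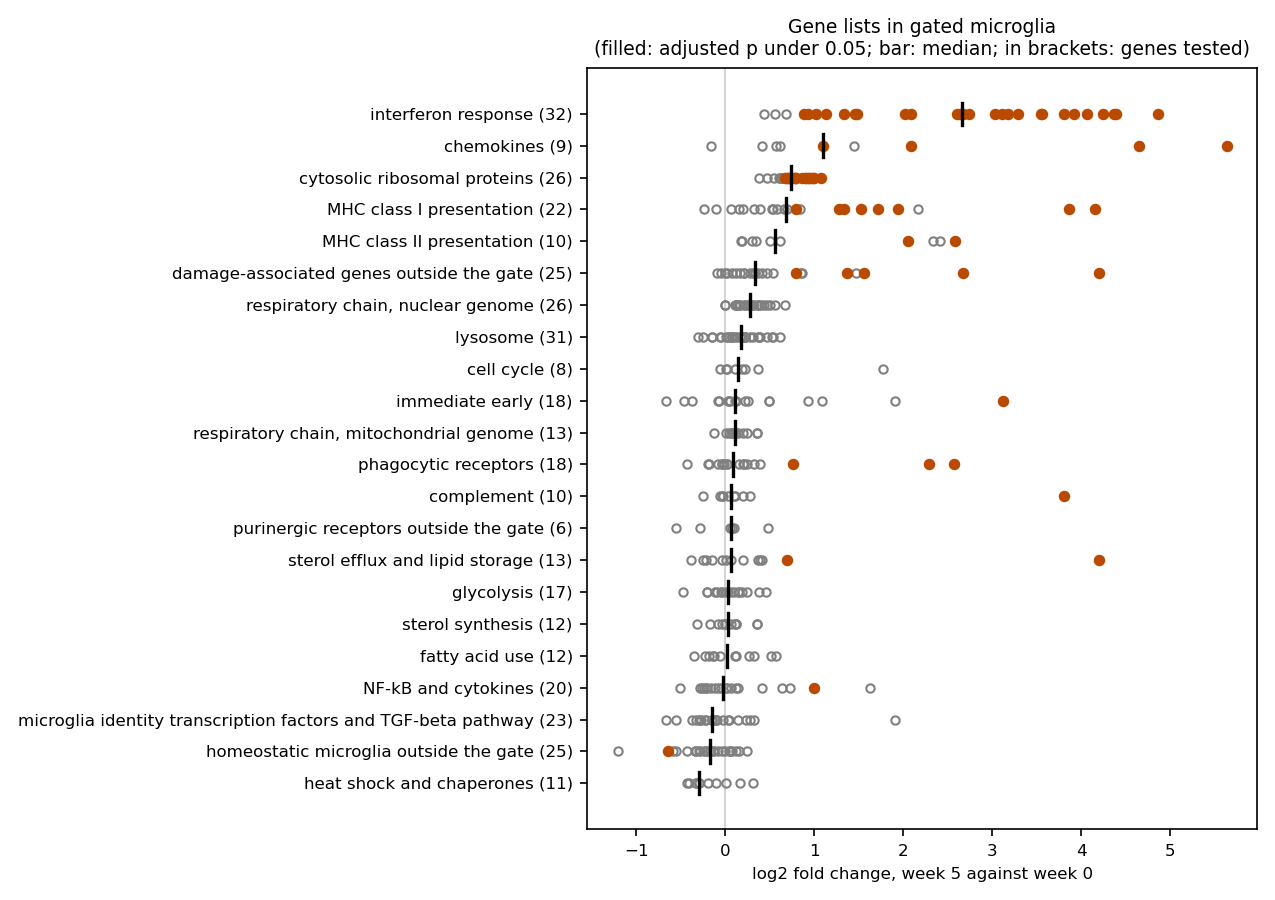
Log2 fold change, week 5 against week 0, of each tested gene in 22 gene lists in gated microglia; filled points have an edgeR adjusted p under 0.05, black bars are list medians and brackets give the genes tested. The interferon response list has a median of 2.66 and the homeostatic list one of -0.17.

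Few genes fell. Rgs7bp, which anchors a G protein regulator, had 34.99 and 36.02 CPM at week 0 against 14.1 and 13.8 CPM at week 5 (log2 fold change -1.35, SE 0.24, edgeR adjusted p 0.00552). The zinc transporter Slc39a10 had 52.2 and 72.3 CPM against 34.95 and 28.8 CPM, and the pseudokinase gene Trib1 had 73.7 and 85.8 CPM against 42.3 and 47.2 CPM. Myo18b, Klhdc8b, Tmem204, Fam110a, Gm40841 and Fam102b had log2 fold changes between -1.29 and -0.70. Each of these falls lost its call in at least 1 alternative. Leaving out a library ended the call of all of them but Rgs7bp, most often week 0 replicate 2, without which Slc39a10 had an adjusted p of 0.324, Fam110a of 0.685, Fam102b of 0.201 and Trib1 of 0.159.

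Cells with no UMI of the 8 damage-associated genes gave the strictest view. In them Apoe was 591 and 276 CPM of total UMIs at week 0 and 4083 and 4002 CPM at week 5, 9.42 and 9.24 times the week 0 mean. The interferon list summed to 873 and 834 CPM against 3162 and 2763 CPM. H2-D1 was 381 and 410 CPM against 1282 and 1466 CPM, while P2ry12 was 4035 and 3932 CPM against 3315 and 2880 CPM. The 153 and 201 week 5 cells of this kind differed from week 0 in the same directions as the whole gate for these 4 measures.

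Across the damage-associated sum, Apoe and the interferon list followed different courses within week 5. In replicate 1, Apoe was 4083 CPM at a sum of 0, 13797 CPM up to 5, 25155 CPM from 5 to 10, 45416 CPM from 10 to 50 and 73338 CPM above. The interferon list in the same library was 3162, 3776, 6175, 5103 and 5224 CPM. In replicate 2 it was 2763, 3783, 3634 and 2944 CPM over the first 4 ranges and 9306 CPM in the last, which held 2 cells and is not drawn. P2ry12 decreased over all ranges in both libraries. The sum was used by the rule, so these values are a description.

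**Figure D4:**
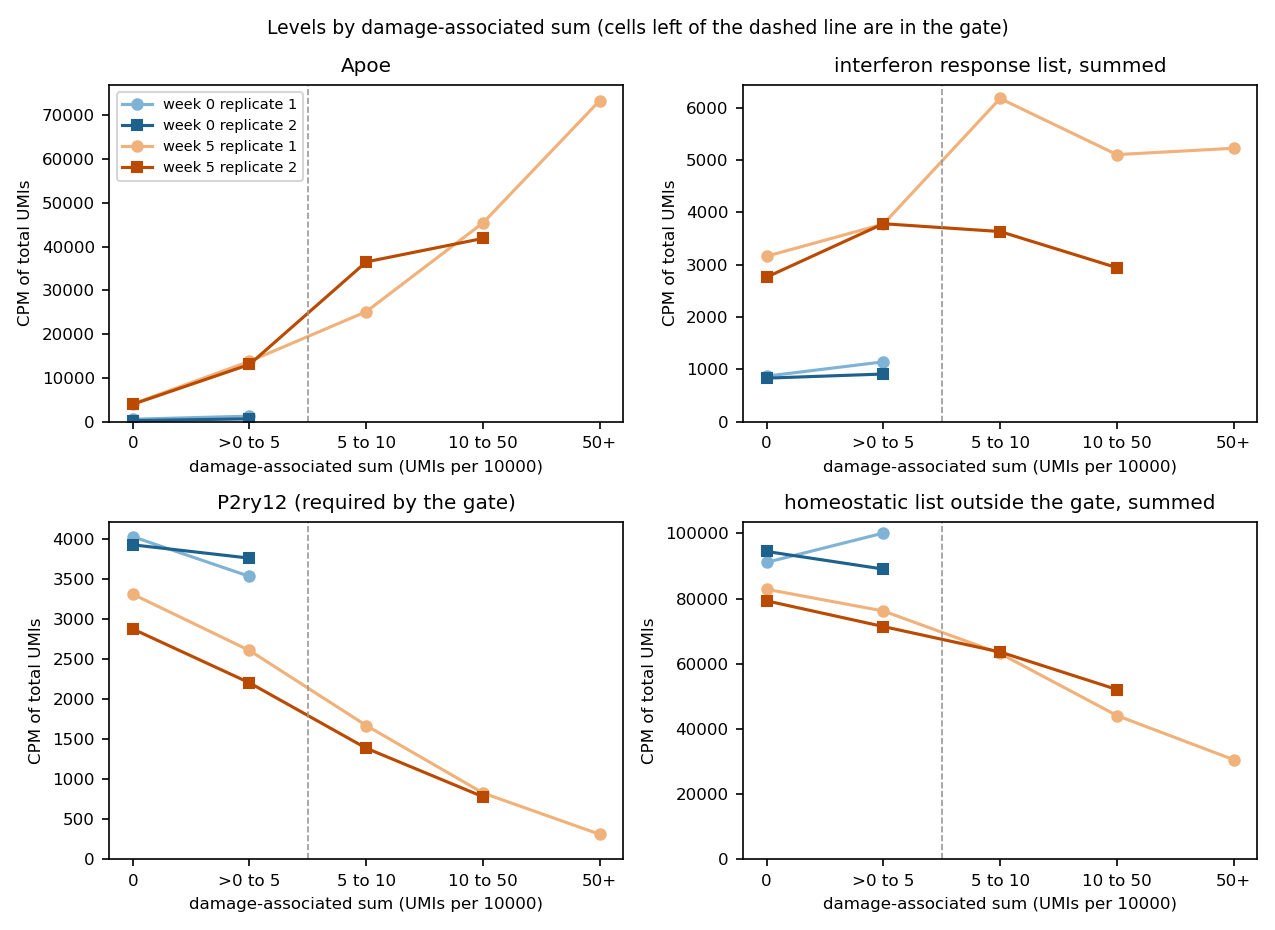
Level (CPM of total UMIs) of Apoe, the summed interferon response list, P2ry12 and the summed homeostatic list against the damage-associated sum per 10000 UMIs, by library; the dashed line is the limit of the gate, and only ranges with at least 20 cells are drawn. Apoe climbs from 4083 to 73338 CPM in week 5 replicate 1, while the interferon list stands at 3162 and 2763 CPM already at a sum of 0.

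Week 5 microglia over the limit, 193 and 78 cells, are set beside the gated ones as a description. Apoe was 5.07 and 5.02 times as high over the limit as in the gate, Cd63 3.03 and 2.52 times, and Ctsb 2.38 and 1.84 times. Homeostatic genes were lower over the limit, at ratios of 0.55 and 0.74 for Cx3cr1, 0.42 and 0.55 for Selplg and 0.30 and 0.51 for Slc2a5. Among interferon genes the ratios were 0.97 and 0.72 for Slfn2, 1.69 and 1.19 for Ifi204 and 2.88 and 2.24 for Ifi207. H2-D1 had 1.34 and 1.33. Cells over the limit had medians of 8175 and 6045.5 UMIs.

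**Figure D5:**
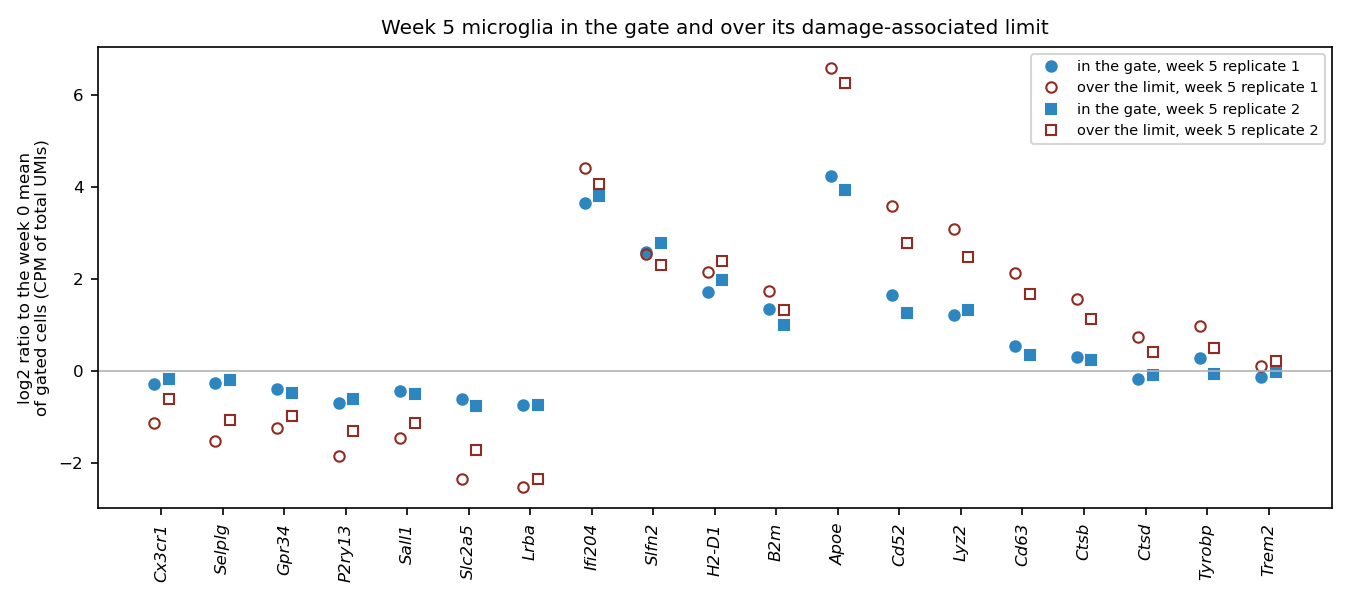
Log2 ratio of each gene's level to the mean of the week 0 gated cells (CPM of total UMIs) in week 5 microglia in the gate (filled) and over its damage-associated limit (open); circles and squares are replicates 1 and 2. Slfn2 lies close together in both kinds of cell, while Apoe and Cd63 are higher over the limit by ratios of 5.07 and 3.03 in replicate 1.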

How the data were processed

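Single-cell counts of 4 libraries were used, 2 of week 0 and 2 of week 5. The files the authors deposited hold raw UMI counts, whole numbers for each gene in each barcode. Per the submitters' processing notes, which assign no roles, STAR, Cell Ranger 3.0.0, Seurat 4 and mm10 were used. No source used here says how the 1000 barcodes of a table were selected.

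The members and gene lists were chosen with earlier results of these data known. Counts were summed over the gated cells of each library and compared with edgeR 4.0.16 in R 4.3.3 (quasi-likelihood test, TMM factors, filterByExpr, Benjamini-Hochberg adjustment, called under 0.05). The 16 genes of the gate were not tested. The standard error is the log2 fold change divided by the square root of F. CPM are relative to the effective library size unless said to be of total UMIs. Gated cells held between 1607566 and 4300463 UMIs per library. On simulated data with 200 changed genes among 9889 (5 runs), 91.2% of 2-fold and 100% of 4-fold changes were recovered, and 3.79% of calls were false. The changed genes were drawn only from those above a minimum mean CPM. Variation was taken from the trend over genes, not from each gene, so these rates do not cover genes of lower level or of unusual spread. Scrublet (scanpy 1.11.5) marked 21 of 3728 cells as doublets (0.563%), 16 of them in the gate; they were kept, and removed in an alternative.

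Genes named are the 12 largest rises and 10 largest falls among called genes with a mean of at least 20 CPM in a group and no overlap between groups, up to 4 called members of each list with the lowest adjusted p, and a fixed set of 39. Other genes named were chosen after their values were seen, as were the promoter motif and which promoters to display. Some genes of this rule are not reported here. Promoter sequences are RefSeq's. Alternatives were thinning, other depth, gate and gene limits, doublets, no filter, library size scaling, each library left out, a replicate block and DESeq2 1.42.0.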

Additional observations from a re-analysis of the deposited data

How the results depend on the processing

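The number of called genes, 218, depended on the settings. It was 138 with each gated cell thinned to 1500 UMIs, 78 with the gate applied to thinned cells, 138 with a minimum of 3000 UMIs, 145 with a damage-associated sum of 0 UMIs, 363 with a limit of 10 per 10000, and 371 with no filter on low counts. Leaving out 1 library gave 160 to 348, the highest without week 5 replicate 2; the group left with 1 library is then assumed to vary like the other. With a replicate block it was 349 (298 higher, 51 lower). The block also called P2ry13 (adjusted p 0.0399), Slc2a5 (0.0235), Jun (0.00531) and Ccl4 (1.17e-05). Same-numbered libraries deviated together with r = 0.147 over 9889 genes, but with 2 pairs and no label to say so the numbers were not taken as a pairing. DESeq2 called 191. Of 45 named genes that were called, 23 stayed called in every alternative that tested them, among 17.

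The share of marker-positive microglia in the gate was 96.1%, 95.4%, 63.2% and 77.9% in week 0 replicates 1 and 2 and week 5 replicates 1 and 2 with cells thinned before gating. It was 99.8%, 99.4%, 76.6% and 91.6% with a limit of 10 per 10000, and 91.2%, 85.9%, 29.3% and 49.5% with a sum of 0 UMIs.

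Directions that turned were those of genes near 0, except for Ccl4 (log2 fold change -0.28 with a sum of 0 UMIs); the cause was not tested. With the gate on thinned cells Trem2 was -0.021. With a minimum of 3000 UMIs Trem2 was -0.041 and Mertk 0.061. With a sum of 0 UMIs Trem2 was -0.036 and Mertk 0.016. Trem2 was -0.060 without the required markers and -0.067 with library size scaling. Leaving out 1 library gave -0.111 to 0.023 for Ctsd, -0.101 to 0.146 for Trem2, -0.0072 to 0.418 for Tyrobp, -0.222 to 0.178 for Mertk and -0.029 to 0.248 for C1qa; none of these was called.

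Depth limits genes of few UMIs: Lgals3, Igf1 and Fos did not pass the filter on low counts in gated cells and were tested only in some alternatives. With 2 libraries a group, an exact permutation test over libraries cannot pass 0.05, so single values carry no such test.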

Other observations

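Fkbp5, Ddit4 and Sdc3 rose in the gated cells; they were picked after their values were seen. Fkbp5, a co-chaperone of the glucocorticoid receptor, had 88.4 and 67.5 CPM at week 0 against 247 and 353 CPM at week 5 (log2 fold change 1.96, SE 0.20, edgeR adjusted p 2.36e-05). Ddit4, an inhibitor of mTOR signalling, had 19.6 and 20.9 CPM against 103.3 and 190.6 CPM (log2 fold change 2.83, SE 0.26). Sdc3, the heparan sulfate proteoglycan syndecan-3, had 13.5 and 14.0 CPM against 104 and 102 CPM. All 3 were called in each of the 17 alternatives, with an adjusted p of at most 0.000106 for Fkbp5, 0.000105 for Ddit4 and 3.45e-06 for Sdc3.

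The non-coding hosts of small nucleolar RNAs Gas5 and Zfas1 were also higher at week 5. Gas5 had 157 and 138 CPM against 312 and 269 CPM, and Zfas1 had 23.3 and 27.7 CPM against 79.3 and 82.9 CPM (log2 fold change 1.63, SE 0.18, edgeR adjusted p 4.83e-05). The translation elongation factor gene Eef1a1 had 1502 and 1741 CPM against 2918 and 2427 CPM (edgeR adjusted p 0.0313).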
